A study of Mus musculus with 2 samples.

Results

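The comparison described here set whole liver labelled P1, of mice lacking the matrix metalloproteinase MMP-14, against sorted fetal liver cells labelled E14 that lack it too, using the knockout (Cy3) channel of both arrays of the series. Of 16390 named genes on the arrays, 14418 read above the empty-spot threshold on at least 1 of the arrays and were kept (20040 of 23473 gene probes). Of these, 12739 were above the threshold on both arrays, 510 on the P1 liver array only and 1169 on the E14 cell array only. The fold differences below rest on the 12739 genes, and the other genes have only a bound. Genes were kept by signal strength on either array, so a gene could enter through 1 array alone. The 12739 leave out genes seen on 1 array only, so this set is not independent of the difference between the arrays.

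The study hybridised RNA of Mmp14 knockout and wild-type mouse liver against each other on 2 arrays, knockout in Cy3 and wild type in Cy5. The fetal group was labelled E14 and consisted of cells that carried the surface protein Dlk and lacked CD45, CD71 and Ter119, the last 3 being markers of blood cells. The design text gives E14.5 and RNA of 100000 sorted cells from 3 knockout livers. The other group was labelled P1 and was a mixture of RNA from 2 whole knockout livers. The design text gives E18.5 for these livers, so their age is uncertain, and the label P1 is used here as a name only. The allele, strain and sex of the mice are not given in the sources used here, and all animals of both groups carried the knockout. Each group was 1 pool on 1 array, so every difference below lacks a replicate check and no p-value is given. Age, cell sorting and the cell types included all differed between the groups and cannot be told apart.

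The fetal liver is both a blood-forming organ and the source of hepatocytes. Its epithelial precursors, the hepatoblasts, display the membrane protein Dlk, divide rapidly and later give rise to hepatocytes and bile duct cells, while hepatocytes acquire the enzymes of glucose, nitrogen, drug and bile acid metabolism around birth. MMP-14 is a membrane-anchored protease that cleaves collagens and other matrix proteins and activates the precursor of MMP-2.

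The targeted gene was read above the threshold in both knockout channels. Mmp14 had a scaled signal of 44.4 on the E14 array and 25.8 on the P1 array, against 105.5 and 97.8 in the wild-type channels, which were scaled separately. The authors' deposited table gave log2 knockout over wild-type ratios of -2.13 on the E14 array and -2.83 on the P1 array for this gene. Signal here means the reading minus the mean of the empty spots named BLANK, scaled so that both arrays share 1 distribution, and it has no absolute unit. The thresholds were readings of 85.1 on the E14 array and 87.0 on the P1 array, against median gene probe readings of 122 and 113. Of the empty spots named No probe, 12.9% on the E14 array and 18.4% on the P1 array also passed the threshold. Nearly all No probe spots read at or below 89.8 on the E14 array and 92.0 on the P1 array. Genes whose dim side lay within this range are called near the empty spots below, and their fold differences are imprecise. Of the spots named Negative control, 24.0% and 15.6% passed, and the same limits for them were 92.7 and 92.3. Genes are not marked by this wider range. At the bright end, 20 of these genes had whole-number readings on either array, 8 of them on both, while other readings carried decimals. Such readings may be limited by the scanner's range, which the files do not state, and they were not all equal (33338 for Apoa1 and 37669 for Mt1 on the E14 array). They are called possibly saturated below. Where only the brighter side is saturated, the difference may be larger than the value given. Where both sides are, neither its size nor its direction is known.

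Of the 12739 genes, 1653 (13.0%) were at least 2-fold higher in P1 liver and 1895 (14.9%) were at least 2-fold lower. Differences of at least 4-fold were found for 687 genes higher and 444 lower, and differences of at least 16-fold for 199 higher and 35 lower. With this scaling, large differences were therefore mostly in the direction of P1 liver. The lowest scaled signal above the threshold was 3.15 on the E14 array and 5.42 on the P1 array, so genes dim in E14 cells could reach larger folds. The 4-fold and 16-fold counts were not repeated under other settings. The median difference over all genes was -0.10 on the log2 scale, with an SD of 1.29 across genes. Without scaling between the arrays the median shifted to -0.58 and the counts to 1029 higher and 3888 lower, so 20.9% of the genes past 2-fold were higher in place of 46.6%. For the 139 genes with several probes, probes of the same gene varied by a median SD of 0.44 and a pooled SD of 0.91 (log2). The plot of both knockout signals shows how the gene lists lie on either side of equality.

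**Figure D1:**
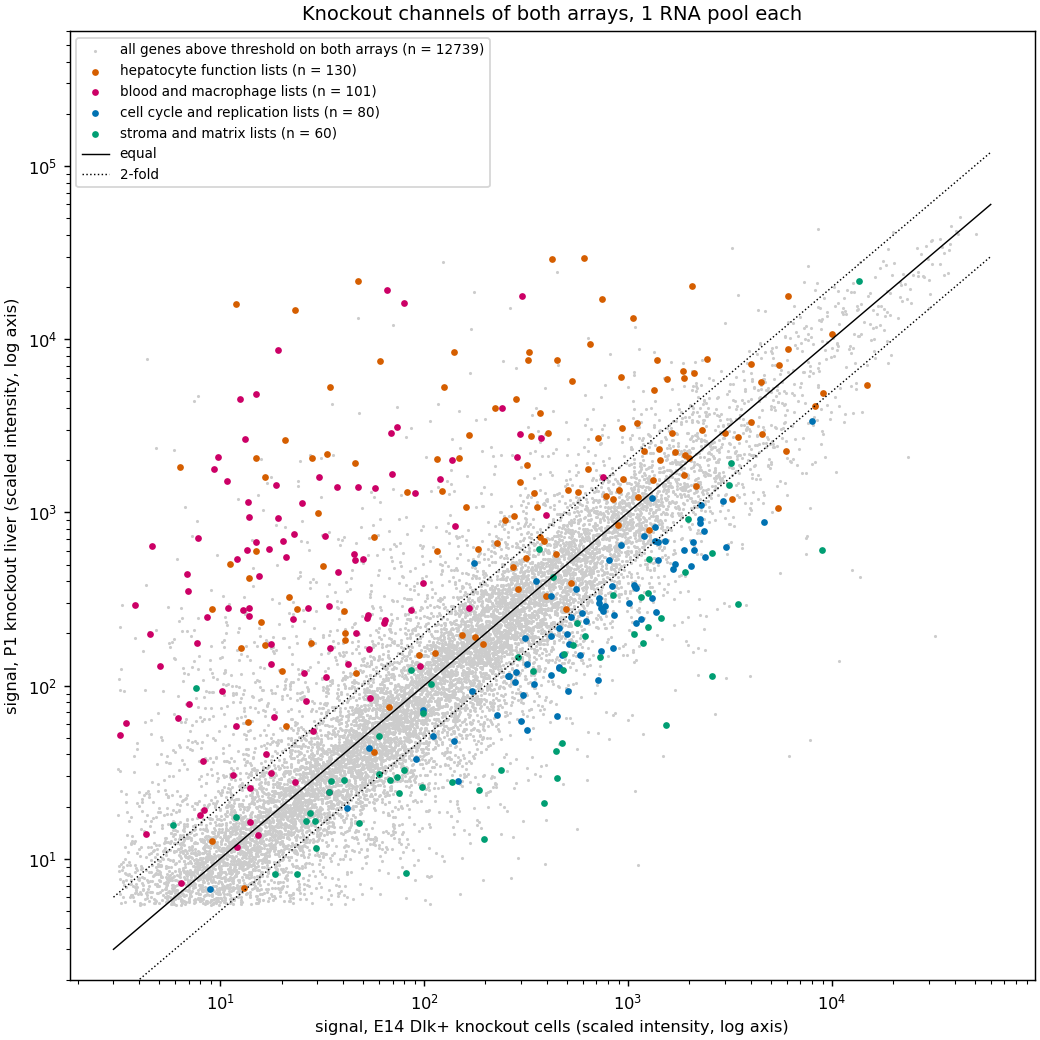
Scaled signal of each gene in E14 Dlk+ knockout cells (horizontal, log axis) and P1 knockout liver (vertical, log axis), with 1 RNA pool per array, for the 12739 genes above threshold on both. Hepatocyte function and blood or macrophage genes lie mostly above the solid line of equality, and cell cycle, replication, stroma and matrix genes mostly below it (dotted lines mark 2-fold).

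The genes with the largest measured excess in P1 liver included hepatocyte, neutrophil and macrophage genes. Among the 20 highest, each with both signals above the threshold and a mean level above the 25th percentile of genes, the hepatocyte enzymes and secreted proteins included Tat, Cyp2e1, Pck1, Tdo2, Apoa4 and Apoa5. Tat, the tyrosine aminotransferase that starts tyrosine breakdown, had a signal of 12 in E14 cells and 15981 in P1 liver, a log2 difference of 10.38. Fgl1, a secreted fibrinogen-like hepatocyte protein, had 4.37 and 7665 (10.78), with the E14 value near the empty spots. Others of the 20 were the neutrophil granule genes Camp (8.81), Ngp (8.49), Ltf (7.64), S100a8 (7.66) and S100a9 (8.20), and the macrophage genes Marco (8.34), C1qa (7.58) and C1qb (7.74). The dim E14 value was near the empty spots for 5 of the 20. Apoa4, C1qa and C1qb were not among these 5, but their E14 readings of 89.9, 91.6 and 92.1 lay within the wider range of the Negative control spots. In the wild-type channel 15 of the 20 genes were measured on both arrays, and these 15 were at least 2-fold higher in P1 there too.

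The lowest genes were of mixed kinds. Serpina6, which encodes the corticosteroid-binding globulin of plasma, had a signal of 31839 in E14 cells and 192 in P1 liver, a log2 difference of -7.37. Cited1, a transcriptional coactivator, had 7792 and 48.7 (-7.32). Car3, a cytosolic carbonic anhydrase, had 6178 and 39.4 (-7.29), and Ptn, a heparin-binding growth factor, had 1120 and 9.23 (-6.92), the latter near the empty spots. Dlk1, the protein used to sort the cells, had 10871 and 138.5 (-6.29), a value that is not independent of the sort. The 20 lowest also held Shbg (-5.46), the sex hormone-binding globulin, the monoacylglycerol acyltransferase Mogat2 (-5.12), the cell cycle inhibitor Cdkn1c (-5.02) and the creatine synthesis enzyme Gamt (-4.77), as well as the immediate early gene Fos (-5.28), the chemokine Cxcl1 (-5.24), the pancreatic lipase relative Pnliprp1 (-5.23) and the smooth muscle actin Acta2 (-4.70). All 20 were at least 2-fold lower in the wild-type channel as well, and 6 of the 20 were near the empty spots on the P1 array.

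Genes seen on the P1 array only had the steepest bounds. Of the 510, 421 (82.5%) were at least 2-fold above the lowest E14 signal over the threshold, 3.15. Cyp4a14, a fatty acid hydroxylase of the microsomes, had a P1 signal of 36284, possibly saturated and at least 11517-fold higher than in E14 cells. The macrophage and Kupffer cell genes Clec4f (1115, at least 354-fold) and Mrc1 (470.8, at least 149-fold), the endothelial VEGF receptor Flt1 (878, at least 279-fold) and the chitinase-like protein Chil3 (8279, at least 2628-fold) were also seen only there. Of the 1169 genes seen on the E14 array only, 254 (21.7%) reached a 2-fold bound over the lowest P1 signal above the threshold, 5.42. This floor is higher than the 3.15 of the E14 array. The shares of 82.5% and 21.7% depend on these floors and are not comparable with each other. Among the furthest were Nrk, a kinase of the fetus and placenta (384, at least 71.0-fold higher in E14 cells), the heparan sulphate sulphotransferase Hs6st2 (269, at least 49.7-fold) and the mesenchymal cadherin Cdh11 (171, at least 31.6-fold). Ihh, a hedgehog ligand, had 99.3 (at least 18.3-fold). Of the 8 largest bounds on the E14 side, 5 genes were measured on both arrays in wild type. Of these, 4 were at least 2-fold higher in E14 cells there, but Cdh11 was level (93.1 in E14 cells and 116.9 in P1 liver, 0.33). Of the 8 largest on the P1 side, 3 were measured in wild type, and all 3 were at least 2-fold higher in P1 there.

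Several lists of hepatocyte metabolism held a larger share of genes at least 2-fold higher in P1 liver than all genes did. Gene lists were drawn up by pathway and cell type, and each list is described by its members above the threshold on both arrays, its counts past 2-fold and its median, to be read beside 13.0% higher, 14.9% lower and a median of -0.10 over all genes. Of 9 urea cycle and ammonia genes, 6 were at least 2-fold higher in P1 liver and 2 lower, with a median of 1.81. Cps1, the mitochondrial enzyme that commits ammonia to the cycle, had a signal of 16.6 in E14 cells and 1604 in P1 liver (6.60). Arg1, the arginase that releases urea, had 609 and 29460 (5.60), and Glul, the glutamine synthetase, had 122.9 and 1327 (3.43). The cycle was not higher throughout. Otc, the ornithine transcarbamylase that acts directly after Cps1, went from 3231 to 1200 (-1.43), and Glud1, the glutamate dehydrogenase, from 14771 to 5435 (-1.44).

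Of 10 genes of glucose production and glycogen, 5 were at least 2-fold higher, none was lower by that much, and the median was 1.13 (0.65 to 1.25 over the alternative settings). Pck1, the phosphoenolpyruvate carboxykinase that starts gluconeogenesis from oxaloacetate, had 47.3 in E14 cells and 21819 in P1 liver (8.85). Slc37a4, the glucose 6-phosphate transporter of the endoplasmic reticulum, had 528 and 5705 (3.43), and the pyruvate carboxylase gene Pcx had 370 and 3764 (3.35). Gys2, the liver glycogen synthase (3441 and 2724, -0.34), and Pygl, the liver glycogen phosphorylase (1875 and 1638, -0.19), were within 2-fold. Gbe1, the glycogen branching enzyme, was higher (247.9 and 899, 1.86).

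Of 29 genes of amino acid breakdown, 19 were at least 2-fold higher and none lower by that much, with a median of 1.71. Beside Tat, the tryptophan dioxygenase gene Tdo2 went from 6.36, near the empty spots, to 1820 (8.16). Mat1a, which makes the adult liver form of methionine adenosyltransferase, had 422.5 and 28936 (6.10), and Agxt, an alanine-glyoxylate aminotransferase, had 323 and 7571 (4.55). Further down the tyrosine pathway, Hpd (1061 and 13275, 3.65), Hgd (1886 and 5990, 1.67) and Fah (2117 and 6378, 1.59) were higher by less, and Gstz1 (2979 and 2878, -0.05) was level. The order of these log2 differences, from Tat down to Gstz1, followed the E14 signals in reverse. The E14 signal is part of each difference, so such an order arises in part by construction. These genes are a few members of the list.

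Fatty acid oxidation and ketone body genes were split. Of 21, 10 were at least 2-fold higher and 1 lower, with a median of 0.85, and at least 0.57 under the alternative settings. Cpt1a, the gate for fatty acids into mitochondria, had 222.1 and 4012 (4.17), the peroxisomal Ehhadh had 327 and 8490 (4.70), and Pdk4, a kinase that shuts pyruvate out of mitochondria, had 56.6 and 723 (3.68). The mitochondrial beta-oxidation enzymes Hadha (1995 and 2057, 0.04), Acadl (4474 and 5650, 0.34) and Hadh (9058 and 4874, -0.89) stayed within 2-fold. Bdh1, the ketone body dehydrogenase, was lower in P1 liver (5925 and 2262, -1.39).

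Sterol and fatty acid synthesis ran the opposite way. Of 24 genes, 20 were at least 2-fold lower in P1 liver and 1 higher, with a median of -1.77. Scd1, the main fatty acid desaturase of liver, had 3774 in E14 cells and 291 in P1 liver (-3.70), Scd2 had 7466 and 574 (-3.70), and the fatty acid synthase gene Fasn had 1964 and 248.6 (-2.98). In the cholesterol pathway, the signals of Mvd (1075 and 137.6, -2.96), Cyp51 (1706 and 404, -2.08) and Idi1 (1686 and 462, -1.87) were lower. Lss, the lanosterol synthase between them, was nearly level (803 and 697, -0.20). Srebf1 (-1.94), a transcription factor that drives these enzymes, was lower too. The exception was Me1, a cytosolic malic enzyme (333 and 1226, 1.88).

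**Figure D2:**
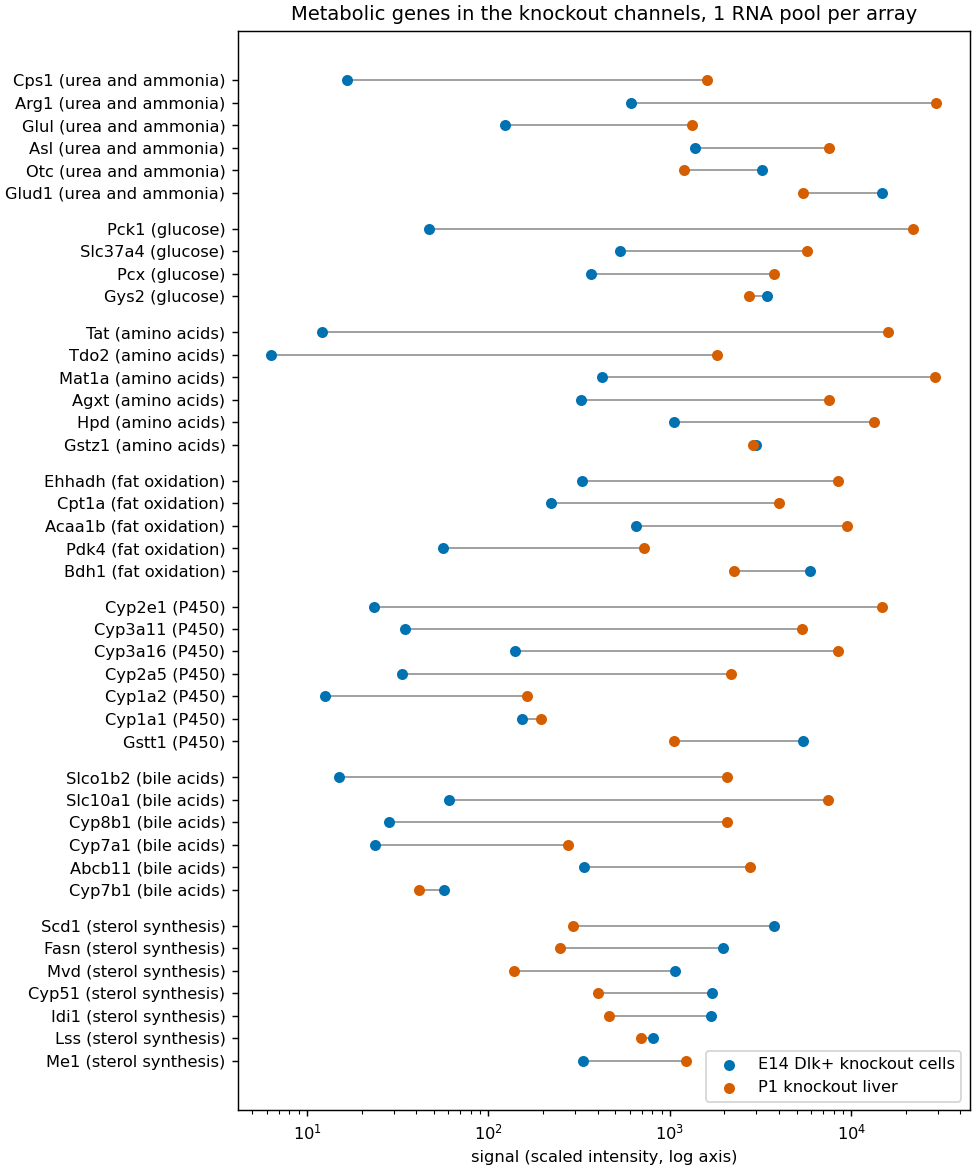
Scaled signal (log axis) of selected metabolic genes in E14 Dlk+ knockout cells (blue) and P1 knockout liver (orange), 1 RNA pool each. Pck1, Tat and Cyp2e1 spanned the widest gaps, Gstz1 and Lss were close to level, and the sterol and fatty acid synthesis genes other than Me1 lay to the left in P1 liver.

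Drug-metabolising enzymes were far from uniform. Of 42 cytochrome P450 and conjugation genes, 23 were at least 2-fold higher and 1 lower, with a median of 1.51 (0.75 to 1.67 over the settings). Cyp2e1, which oxidises ethanol, had 23.4 and 14726 (9.30). In the Cyp3a family of drug and steroid hydroxylases, Cyp3a11 had 34.7 and 5324 (7.26), Cyp3a25 had 20.8 and 2630 (6.99), Cyp3a16 had 139.8 and 8452 (5.92) and Cyp3a13 had 165.4 and 2803 (4.08). Near-identical family members can bind each other's probes, and this was not tested. Cyp2c29 was dim on both arrays (13.1 and 6.76, the latter near the empty spots), while its relative Cyp2c37 had 15.1 and 596 (5.31). Gstt1, a glutathione transferase, was the 1 gene lower by more than 2-fold (5450 and 1058, -2.37).

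Bile acid genes had the highest median of the metabolic lists, 3.53, with 16 of 19 at least 2-fold higher and none lower by that much. The basolateral uptake carriers Slc10a1 (60.6 and 7452, 6.94) and Slco1b2 (15 and 2059, 7.10) differed most, followed by the sterol hydroxylase Cyp8b1 (28.2 and 2068, 6.20). Cyp7a1, the rate-limiting enzyme of the classical synthesis route, had 23.8 and 275.1 (3.53), and the export pump Abcb11 had 335.6 and 2774 (3.05). The nuclear receptors of bile acid control, Nr1h4 (40.7 and 269.3, 2.73) and Nr0b2 (31.8 and 491, 3.95), were higher as well. Cyp7b1 of the alternative route was near level (56.8 and 41.6, -0.45).

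Promoter sequences are shown for the members where the differences were large and a motif of a liver factor was found. Of the 6 hepatocyte function lists (urea, glucose, amino acid, fatty acid oxidation, P450 and bile acid genes), 164 genes had an entry in the RefSeq promoter table of build GRCm38.p6, read here over the 250 bases before the start site. The letters GTTAAT, part of the motif of HNF1, were found on either strand in 29 of 164 (17.7%) against 6.52% of all 27025 promoters. CAAAGTC, part of the HNF4 motif, was in 11.6% against 3.80%, and the C/EBP motif TTGCNNAA in 17.7% against 9.55%. The shares cover the listed genes whatever their difference, including genes not measured here and genes that were level or lower in P1 liver. They are not shares of the genes higher in P1 liver. These matches are a description of letters, not sites shown to be bound. Pck1 lies on chr2:173152823-173153072 (plus strand) and Cyp3a11 on chr5:145879855-145880104 (minus strand), and capitals mark the HNF1 letters in the former and the HNF4 letters in the latter.
Pck1: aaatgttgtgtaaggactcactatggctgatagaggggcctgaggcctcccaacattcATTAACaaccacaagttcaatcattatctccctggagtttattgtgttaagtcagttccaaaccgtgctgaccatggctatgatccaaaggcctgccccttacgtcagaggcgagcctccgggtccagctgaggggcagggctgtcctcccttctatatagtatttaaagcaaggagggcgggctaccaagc
Cyp3a11: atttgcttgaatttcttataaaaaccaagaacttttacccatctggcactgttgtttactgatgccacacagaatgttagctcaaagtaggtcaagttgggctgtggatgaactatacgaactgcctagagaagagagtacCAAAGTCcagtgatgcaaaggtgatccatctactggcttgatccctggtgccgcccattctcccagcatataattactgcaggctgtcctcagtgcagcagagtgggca

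Secreted plasma proteins included some of the brightest genes on both arrays. Of 34 plasma protein and apolipoprotein genes, 11 were at least 2-fold higher and 2 lower, with a median of 0.31 (0.28 to 0.84 over the settings), and 10 were possibly saturated on at least 1 array, so the size of their differences is not resolved. Apoa2, a major apolipoprotein of high-density lipoprotein, had 50882 in E14 cells and 40560 in P1 liver, both possibly saturated. Ttr, the thyroxine carrier transthyretin, had 35503, possibly saturated, and 23501. Set apart from these, Apoa4 (7.81 and 4679, 9.23), Apoa5 (47.3 and 13253, 8.13), Azgp1 (70.4 and 12078, 7.42) and Fetub (48.1 and 3766, 6.29) were dim in E14 cells and bright in P1 liver. In 37 complement and coagulation genes the counts, 7 higher and 5 lower, were closer to those of all genes. The median of 0.13 turned negative without scaling. F9, coagulation factor IX, was higher (69.4 and 524, 2.92), and C9, the last component of the membrane attack complex, was lower (75.5 and 21.6, -1.81).

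Of 21 acute phase genes 10 were higher and 2 lower by at least 2-fold, with a median of 0.81 (0.71 to 1.86 over the settings). Hamp, which encodes the iron hormone hepcidin, had 264.3 and 15172 (5.84), Hp, the haemoglobin-binding haptoglobin, had 303 and 17747 (5.87), and Serpina3n had 24.5 and 1973 (6.33). Saa4, a serum amyloid A protein, was lower (282.6 and 27.6, -3.36). Of 25 genes of glucocorticoid, circadian and fasting responses 11 were higher and none lower by at least 2-fold, with a median of 0.92 (0.41 to 1.06). Igfbp1, an IGF-binding protein induced in fasting, had 3233 and 33665, the latter possibly saturated. Ddit4, an inhibitor of mTOR complex signalling, had 24.0 and 417 (4.12), and Lpin1, a phosphatidate phosphatase, had 77.1 and 1266 (4.04).

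Transcription factors of the hepatocyte pointed both ways. Of 25, 7 were at least 2-fold higher and 4 lower, and the median of 0.01 fell on either side of zero depending on the scaling. Hnf4a, a central hepatocyte regulator, had 1609 in E14 cells and 2362 in P1 liver (0.55), and Foxa2 had 355 and 265.9 (-0.42). Both stayed within 2-fold. The xenobiotic receptor Nr1i3 had 49.6 and 1066 (4.43), and Ppara, the fatty acid receptor, had 276.9 and 953 (1.78). Tbx3 (306 and 68.2, -2.17) and Gata6 (784 and 178.7, -2.13), factors of early liver growth, were lower. Thus these receptors of metabolism differed while Hnf4a and Foxa2 stood near their E14 signals.

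Genes of the hepatoblast and fetal liver were lower in P1 liver, 15 of 28 by at least 2-fold against 2 higher, with a median of -1.20 (-1.77 to -0.73 over the settings). Igf2bp1, a fetal RNA-binding protein, had 639 in E14 cells and 54.0 in P1 liver (-3.56), Mycn had 247.8 and 20 (-3.63) and the surface proteoglycan Gpc3 had 11388 and 3317 (-1.78). Afp, the alpha-fetoprotein, was possibly saturated on both arrays (38412 and 44930), so its difference may not be resolved. Epcam (16.6 and 71.7, 2.11) and Cd24a (60.8 and 921, 3.92), surface proteins of progenitor and other cells, were higher. Of 18 imprinted growth genes 10 were lower and 1 higher, with a median of -1.41 (-2.42 to -0.99 over the settings). This list shares members with the hepatoblast list, Dlk1 and Cdkn1c among them, so the counts are not separate results. Cdkn1c had 13682 and 421.6 (-5.02), the growth regulator Plagl1 had 23627 and 2089 (-3.50), the noncoding RNA Meg3 had 7551 and 732 (-3.37), and Igf2r, the clearance receptor of IGF2, had 2735 and 277.2 (-3.30). Igf2 itself had 29987 and 15051 (-0.99), just inside 2-fold, and H19 had 36982, possibly saturated, and 24132. In the IGF axis Igfbp2 had 123.8 and 27761 (7.81), while Igfbp3 had 1184 and 176.1 (-2.75). Igf1 had 34.1 and 155.3 (2.19).

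Proliferation genes were lower in P1 liver. Of 38 cell cycle and mitosis genes, 30 were at least 2-fold lower and 1 higher, with a median of -1.75, and of 42 DNA replication genes 35 were lower and none higher, with a median of -1.26. Cks1b, a subunit of cyclin-dependent kinases, had 446.6 in E14 cells and 66.6 in P1 liver (-2.75). The mitotic kinase Plk1 had 320 and 55.4 (-2.53), Cdk1 had 4649 and 874 (-2.41), and the replication factor Gins2 had 710 and 107.6 (-2.72). Mki67, the gene of the Ki-67 proliferation antigen, was level (1310 and 1215, -0.11), and the phosphatase gene Cdc25b was higher (175.5 and 509.9, 1.54). The blood cells of the unsorted liver also divide, and their part in these levels was not tested.

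The promoters of Cks1b (chr3:89418292-89418541, minus strand) and Plk1 (chr7:122159185-122159434, plus strand), in build GRCm38.p6, are shown because these genes differed most in the cell cycle list. Capitals mark the NF-Y letters CCAAT and the CHR letters TTTGAA on either strand, which are elements described at cell cycle promoters. CCAAT was in 24 of 32 promoters of the list (75%) against 34.5% of all promoters, and TTTGAA in 10 (31.2%) against 16.3%. The E2F letters TTCCCGC were in 27.8% of 36 promoters of the replication list against 3.84% of all.
Cks1b: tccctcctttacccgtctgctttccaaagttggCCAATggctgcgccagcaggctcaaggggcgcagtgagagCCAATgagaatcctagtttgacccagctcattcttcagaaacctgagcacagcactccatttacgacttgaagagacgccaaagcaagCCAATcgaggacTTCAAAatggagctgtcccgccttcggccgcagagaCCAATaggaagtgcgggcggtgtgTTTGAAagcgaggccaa
Plk1: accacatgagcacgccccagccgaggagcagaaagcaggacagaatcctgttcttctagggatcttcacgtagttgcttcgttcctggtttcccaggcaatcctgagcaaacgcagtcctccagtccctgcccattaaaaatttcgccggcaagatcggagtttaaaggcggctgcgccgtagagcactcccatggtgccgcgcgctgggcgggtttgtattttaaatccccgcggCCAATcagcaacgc

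Other growth-related lists moved less. Of 44 ribosomal protein genes 3 were lower by at least 2-fold and none higher, with a median of -0.31 (-0.52 to -0.02 over the settings). Of 24 RNA processing genes 9 were lower and none higher, with a median of -0.68 (-1.20 to -0.57), among them the spliceosome protein Snrpd1 (3898 and 984, -1.99). Of 26 genes of endoplasmic reticulum chaperones and amino acid stress, 9 were lower and 3 higher, with a median of -0.88. Pdia6, a disulphide isomerase, had 8860 and 2493 (-1.83), and Hspa5, the chief chaperone of the lumen, had 16056 and 8509 (-0.92). In a separate list, immediate early genes were lower in 12 of 23 and higher in 1, with a median of -1.12 (-1.60 to -0.46 over the settings). Fos had 2670 in E14 cells and 68.7 in P1 liver (-5.28), Junb had 805 and 49.1 (-4.04) and Egr1 had 1964 and 171.8 (-3.51). In the wild-type channel the list had 7 lower and 3 higher, with a median of -0.45, and Fos had -2.86. Cell dissociation is known to induce such genes, and its part in these values was not tested. Of 23 housekeeping genes 1 was higher and 4 lower, with a median of -0.16.

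**Figure D3:**
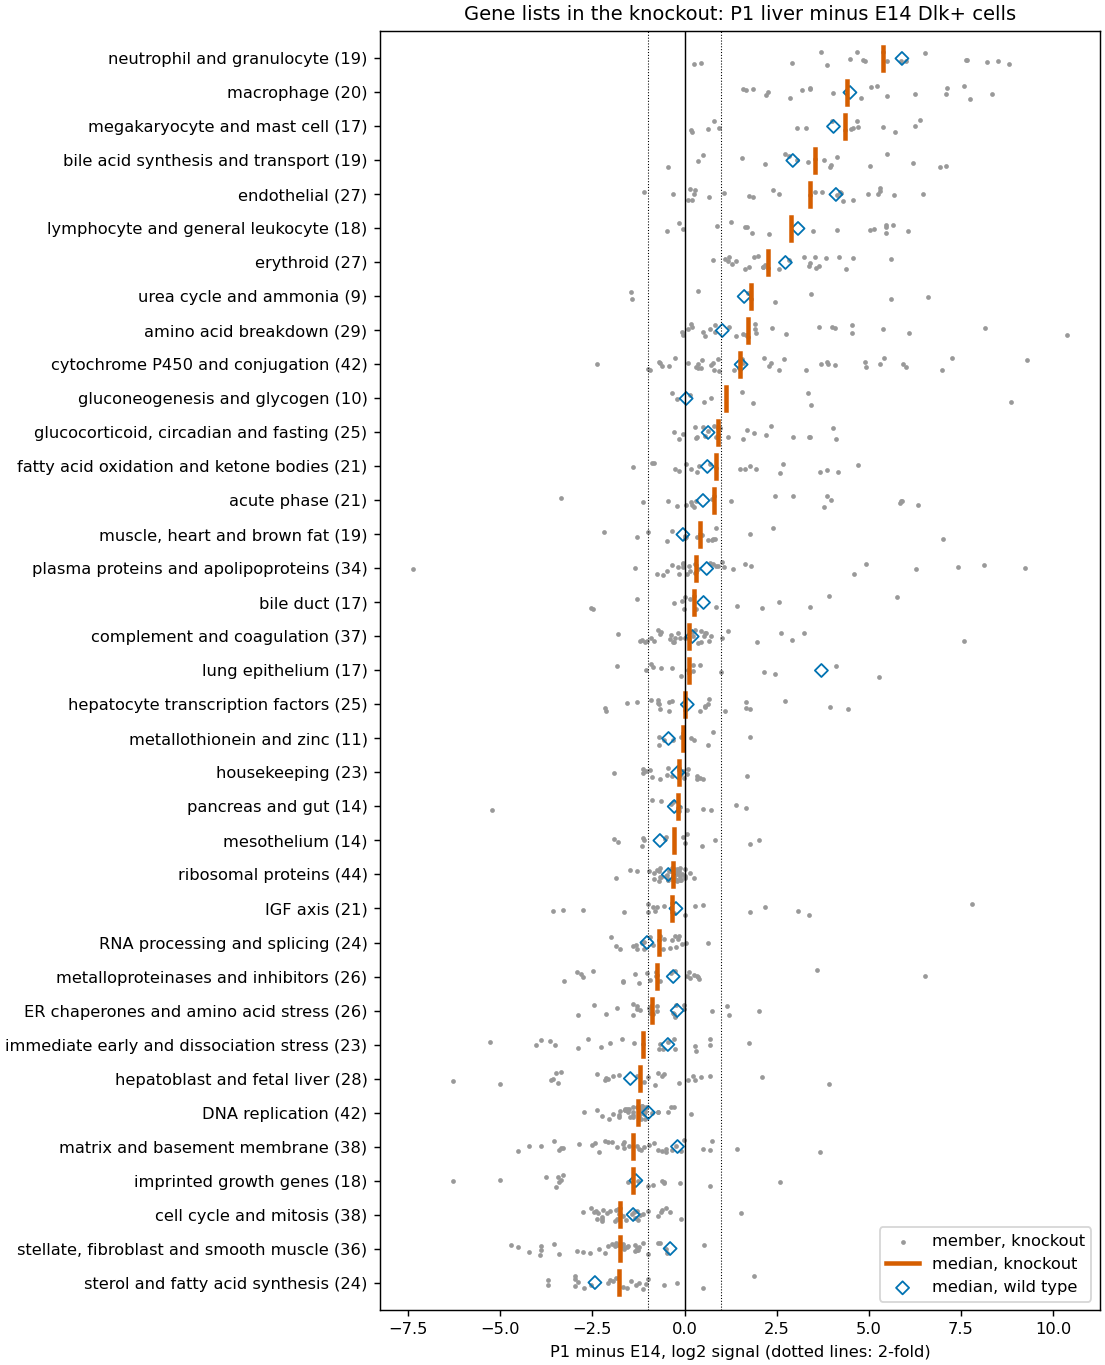
Log2 difference, P1 liver minus E14 Dlk+ cells, of list members above threshold on both arrays (grey points, knockout), the list's knockout median (orange bar) and its wild-type median (blue diamond), with the number of members in brackets. Neutrophil and macrophage lists stood highest and sterol synthesis and stellate cell lists lowest, and the 2 genotypes' medians lay apart for the lung, matrix and stellate lists.

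Most blood and macrophage genes were higher in P1 liver. The E14 cells had been sorted to lack CD45, CD71 and Ter119, so these values are not independent of the sort, and its part in them was not tested. In bulk RNA, fewer cells of a type and less RNA per cell cannot be told apart. Ptprc, which encodes CD45, had 7 in E14 cells, near the empty spots, and 351.6 in P1 liver, and Tfrc, which encodes CD71, had 374 and 2676. All 20 macrophage genes measured on both arrays were at least 2-fold higher, with a median of 4.42 (2.86 to 4.61 over the settings), and 6 more were seen on the P1 array only. The complement genes C1qa (9.28 and 1780), C1qb (9.81 and 2091) and C1qc (10.8 and 1519) were near the bottom of the scale in E14 cells, as was the Kupffer cell receptor Vsig4 (4.62 and 637). Marco, a scavenger receptor, had 15 and 4858. Of 19 neutrophil and granulocyte genes 17 were higher and none lower, with a median of 5.38 (3.55 to 5.63). The antimicrobial peptide gene Camp went from 19.2 to 8631, and S100a9 from 65.6 to 19274. Summed over the list, the signal was 1093 in E14 cells and 89085 in P1 liver. These sums include the haptoglobin gene Hp (303 and 17747), also given above among the acute phase genes, so they are not neutrophil signal alone.

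Of 27 erythroid genes 26 were at least 2-fold higher and none lower, with a median of 2.25 and summed signals of 2907 and 17213. Slc4a1, the band 3 anion exchanger of the red cell membrane, had 19.3 and 933 (5.60). Alas2, the erythroid enzyme that starts haem synthesis, had 57.5 and 1380 (4.58), and the blood group gene Rhd had 37.7 and 451 (3.58). Gata1, the erythroid master factor, had 46.1 and 200.1 (2.12). Among megakaryocyte and mast cell genes 12 of 17 were higher and none lower, with a median of 4.35 that was 1.90 with normexp background correction, and the platelet factor Pf4 had 73.9 and 3105 (5.39). Among lymphocyte and general leukocyte genes 14 of 18 were higher, with a median of 2.88 that was 0.85 with normexp. The T cell genes Cd3d (15.3 and 13.7) and Cd8a (12 and 11.7) were dim and level, while the B cell precursor gene Vpreb3 had 12.1 and 535.6 (5.47).

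Promoters of 18 erythroid genes were in the table, and AGATAA, the core of the GATA motif, was in 7 of them (38.9%) against 10.3% of all promoters. CACACCC, the CACCC box bound by factors such as KLF1, was in 11.1% against 6.85%. Alas2 (chrX:150547167-150547416, plus strand) and Rhd (chr4:134864286-134864535, plus strand), in build GRCm38.p6, are shown with the GATA letters in capitals, on the opposite strand in Alas2.
Alas2: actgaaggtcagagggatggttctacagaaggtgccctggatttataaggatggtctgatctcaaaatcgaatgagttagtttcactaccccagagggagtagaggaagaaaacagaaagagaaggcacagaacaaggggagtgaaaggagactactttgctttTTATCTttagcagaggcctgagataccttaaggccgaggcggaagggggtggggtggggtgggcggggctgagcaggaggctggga
Rhd: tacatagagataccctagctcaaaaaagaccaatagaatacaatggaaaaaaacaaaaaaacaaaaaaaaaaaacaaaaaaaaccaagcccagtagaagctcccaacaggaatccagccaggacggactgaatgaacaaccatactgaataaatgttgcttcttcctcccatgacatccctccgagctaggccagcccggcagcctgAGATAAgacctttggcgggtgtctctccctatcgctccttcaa

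Endothelial genes were also higher, 19 of 27 by at least 2-fold and 1 lower, with a median of 3.42. Lyve1, a hyaluronan receptor of liver sinusoids, had 31.2 in E14 cells and 1225 in P1 liver (5.29), and Stab2, another sinusoidal scavenger receptor, had 5.56, near the empty spots, and 285.6 (5.68). Kdr, a VEGF receptor, had 37.8 and 706 (4.22). Egfl7 (837 and 896.5, 0.10) and Eng (115.1 and 137.9, 0.26) were level, and Plvap was lower (178.2 and 83.0, -1.10). Only 4 members exceeded 2 times the threshold on both arrays, and their median was 0.20.

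Stromal genes were brighter in the sorted E14 cells than in whole P1 liver. Of 36 genes of stellate cells, fibroblasts and smooth muscle, none was higher and 30 were lower by at least 2-fold, with a median of -1.75 and summed signals of 39307 and 8710. Col3a1, a fibrillar collagen chain, had 8953 in E14 cells and 606 in P1 liver (-3.88), Col1a2 had 3460 and 294.8 (-3.55) and Col1a1 had 387 and 20.9 (-4.21). Acta2, the smooth muscle actin, had 1543 and 59.2 (-4.70), and Lum, a small matrix proteoglycan, had 2572 and 113.0 (-4.51). Dcn, a related proteoglycan, was within 2-fold (3195 and 1931, -0.73). Of 38 matrix and basement membrane genes 23 were lower and 2 higher, with a median of -1.40. This list shares members with the stromal list, Col1a1 and Lum among them. Fn1, the fibronectin that hepatocytes also secrete, had 13532 and 21656 (0.68). Signal of collagen genes was thus present in the Dlk+ sort, and which of its cells gave it was not tested.

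Among 26 metalloproteinases and their inhibitors 10 were lower and 2 higher by at least 2-fold, with a median of -0.76 (-1.19 to -0.31 over the settings). Mmp2, the gelatinase whose precursor MMP-14 activates, had 413 in E14 cells and 61.3 in P1 liver (-2.75). The inhibitors Timp1 (80.5 and 8.28, -3.28) and Timp2 (44.8 and 5.88, -2.93) were lower, with P1 values near the empty spots. Timp3 (21.7 and 261.2, 3.59) was higher, as was Mmp8, a neutrophil collagenase (7.79 and 712, 6.51). Mmp15, a membrane-type relative of MMP-14, had 25.5 and 21.4 (-0.25).

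Bile duct genes pointed both ways, with 6 of 17 higher, 3 lower and a median of 0.27 that turned negative without scaling. Tff3, a mucosal trefoil peptide, had 450 in E14 cells and 24427 in P1 liver (5.76), and Spp1, osteopontin, had 310.2 and 840 (1.44). Sox9, a bile duct transcription factor, was level (63.6 and 60.5, -0.07), and the Notch target Hes1 was lower (384.6 and 68.5, -2.49). Of 14 mesothelial genes 2 were higher and 5 lower, with a median of -0.28. Markers of tissue that a liver sample might carry were also read. Of 17 lung epithelial genes 4 were higher and 2 lower, with a median of 0.11, negative without scaling, and summed signals of 954 and 1610. Sftpc, the surfactant protein of alveolar cells, had 3.25 in E14 cells, near the empty spots, and 125.5 in P1 liver. In the wild-type channel the lung list summed to 582 and 41079. Of 14 pancreas and gut genes 2 were higher and 1 lower. That gene was Pnliprp1, a pancreatic lipase relative (1480 and 39.3, -5.23). Fabp4, a fat and endothelial fatty acid carrier in the muscle and fat list, had 15.8 and 2046 (7.02).

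**Figure D4:**
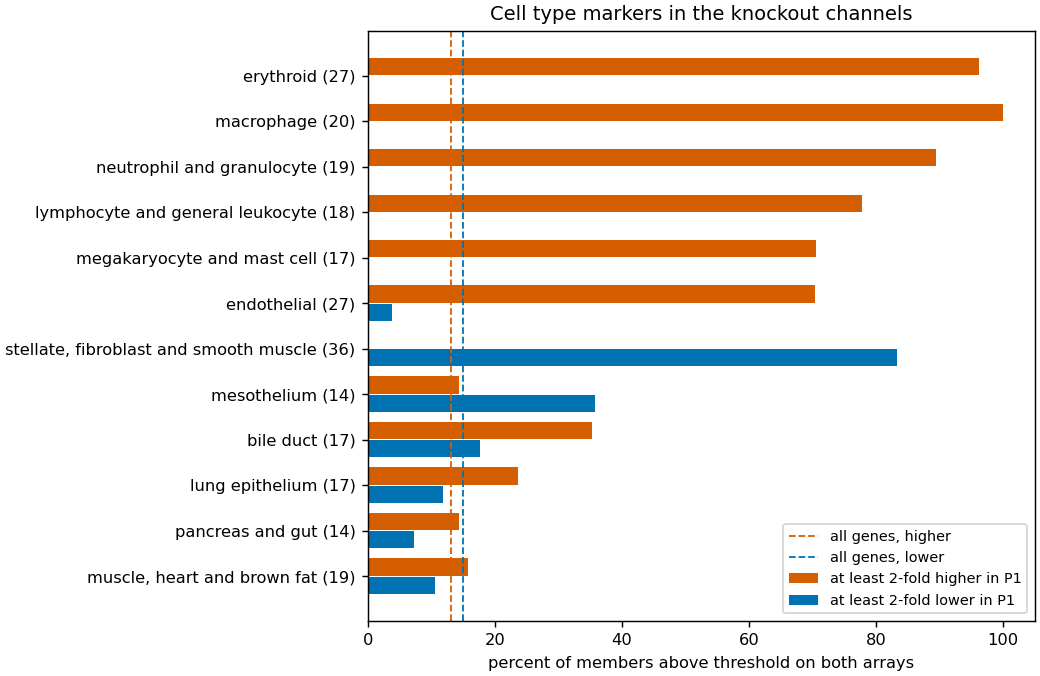
Share of the members of each cell type list that were at least 2-fold higher (orange) or lower (blue) in P1 knockout liver, of those above threshold on both arrays (number in brackets). Dashed lines give the shares over all 12739 genes, 13.0% higher and 14.9% lower. Blood, macrophage and endothelial lists lay far above the line for higher genes, and the stellate list far above that for lower genes.

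The wild-type RNA on the same spots, in the other dye, gave P1 minus E14 differences for a second pair of RNA pools. The pools were not alike: the lung list's summed P1 signal was 41079 in wild type and 1610 in knockout. The wild-type channel shares arrays, spots and hybridisation with the knockout channel, so it is no replicate. In wild type 1447 of 12335 genes (11.7%) were at least 2-fold higher in P1 liver and 2065 (16.7%) lower. Over the 12005 genes measured in both channels, the P1 minus E14 difference of knockout and wild type correlated across genes (Pearson 0.866, Spearman 0.808). Genes are not independent replicates, and the channels share spots. Of the 1431 genes higher in knockout that were measured in wild type, 1026 (71.7%) were at least 2-fold higher there, which is 72.5% of the 1416 higher in wild type. Of the 1857 lower in knockout, 1275 (68.7%) were lower in wild type, which is 65.4% of 1950.

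The 6 hepatocyte lists differed in how close the genotypes were. Medians were 1.81 in knockout and 1.62 in wild type for urea genes, 3.53 and 2.94 for bile acid genes, 1.51 and 1.54 for P450 genes and 0.85 and 0.62 for fatty acid oxidation genes. They were further apart for amino acid breakdown, 1.71 and 1.03, and for glucose production, 1.13 and 0.04. For Pck1 the values were 8.85 and 7.71. Sterol synthesis genes were lower in both, by a median of -1.77 and -2.43. Idi1 was lower by -1.87 in knockout and -4.14 in wild type, and Insig1, the sterol sensor partner, by -1.24 and -3.46. The metal-binding Mt2 was level in knockout (27459 in E14 cells and 30884 in P1 liver, 0.17) and lower in wild type (-3.30). Lpin1 had 4.04 in knockout and 0.22 in wild type. None of these gaps between genotypes has a replicate, and none was tested.

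Larger gaps were found for stroma and lung genes. The stellate list had a median of -1.75 in knockout and -0.39 in wild type, the matrix list -1.40 and -0.19, and the lung list 0.11 and 3.71. Only 29 genes were past 2-fold in opposite directions, 28 of them lower in knockout and higher in wild type. Mfap4, a microfibril-associated matrix protein, had knockout signals of 195.7 in E14 cells and 13 in P1 liver, and wild-type signals of 100.2 and 800. The authors' deposited table gave a log2 knockout over wild-type ratio of 0.10 for Mfap4 on the E14 array and -6.76 on the P1 array. Tcf21, a mesenchymal transcription factor, had knockout signals of 613 and 193.4 and wild-type signals of 202.7 and 654. The reverse case was Kdm5d, a Y-linked histone demethylase, with knockout signals of 14.53 and 38.6 and wild-type signals of 23.9 and 6.82. The lung list's summed signal in P1 liver was 41079 in wild type and 1610 in knockout, the channels being scaled separately. Its part in these gaps was not tested.

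**Figure D5:**
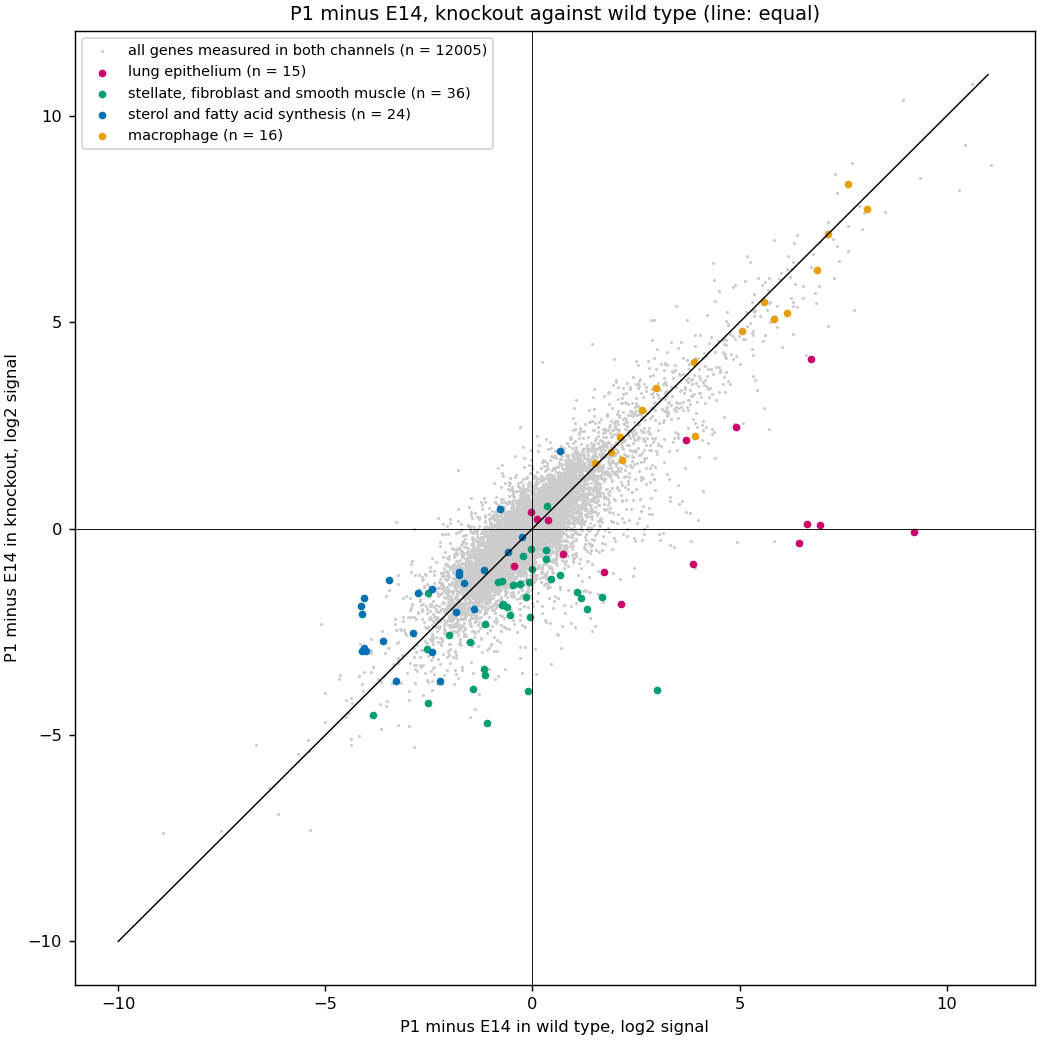
Log2 difference, P1 minus E14, in wild type (horizontal) and knockout (vertical) for the 12005 genes measured in both channels, with 4 gene lists in colour and the line of equality. Macrophage genes lie along the line, sterol synthesis genes lie mostly above it, and stellate and lung genes lie mostly below it.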

How the data were processed

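Total RNA was amplified, coupled to Cy3 (knockout) or Cy5 (wild type) and hybridised to 2 Toray oligonucleotide arrays, per the labels' protocols. Scanner files as deposited give spot intensity per channel, not background-corrected or normalized, and the authors' deposited table gives normalized log2 knockout over wild-type ratios, used only where named. The normalization behind that table and the genome build of the probes are not given in the sources used here. Here the mean of the BLANK spots, trimmed by 5% at each end, was subtracted from each knockout channel. Probes above that mean plus 2 SD on either array were kept, leaving out 4 with a scanner flag, and kept probes were quantile scaled between the arrays. A probe below the threshold on 1 array was given the lowest scaled signal above it there, as a bound. Of 23473 probes, 16631 had 1 gene name in the platform annotation, 3947 of them updated through RefSeq, and probes of a gene were averaged on the log2 scale. The number of arrays, 1 per group, limits the precision, so folds of at least 2 were counted without a test. Genes named are the 20 highest and 20 lowest above the 25th percentile of mean intensity, the 8 largest bounds on either side, up to 4 highest and 4 lowest members of each list, the 10 largest opposite differences between genotypes, and a few by name. Other list members named, such as those given as level, were chosen after their values were seen. The members and lists were chosen with earlier results of these data known. The fold calculation was tested on simulated data. Alternatives covered scaling, background, filters and probe averaging, with normexp from limma 3.58.1 in R 4.3.3. The rest used Python 3.11.15 with pandas 2.3.3, numpy 2.4.6 and statsmodels 0.14.6.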

Additional observations from a re-analysis of the deposited data

Results flagged for a closer look

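For 10 genes the P1 minus E14 difference went opposite ways in knockout and wild type by the widest gaps, with 1 array per stage, so the gap between genotypes was not tested. As knockout minus wild-type log2 difference, the gap was -6.90 for Mfap4, -3.98 for Rtkn2, -3.91 for Plxdc2, -3.86 for Boc and -3.57 for Cryab. It was -3.57 for S100g, -3.56 for Emp1, -3.50 for Ano1, -3.41 for Pmepa1 and -3.36 for Tcf21. All 10 were lower in P1 than in E14 in the knockout channel and higher in the wild-type channel. The lung list, which includes Rtkn2, had a summed P1 signal of 41079 in wild type and 1610 in knockout, the channels being scaled separately. The part of this lung signal in the gaps was not tested. The knockout P1 signal was near the empty spots for Rtkn2, Plxdc2, Boc and Pmepa1.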

How the results depend on the processing

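No paired analysis was possible because each group had 1 sample. The main counts were 1653 genes higher and 1895 lower in P1 liver. Without scaling they were 1029 and 3888, with normexp and an offset of 50 they were 905 and 851, and with genes above 2 times the threshold on both arrays 622 and 677, fewer genes (5749) being tested in the last. The other settings kept both counts within 1.5 times the main ones. Leaving out readings within the range of the empty spots, an alternative chosen after seeing the data, gave 1379 and 1623. The difference of single named genes moved by more than the spread between probes for 223 of them without scaling, 156 with normexp and 117 with the local background subtracted, and for at most 5 under any other setting. With the local background subtracted, 2 named genes changed sign: Lama4, 1.42 in the main setting, was -0.28, and Agr2, 1.40, was -0.70, both being dim on the E14 array. Medians of the bile duct, complement, hepatocyte transcription factor, housekeeping, lung, metallothionein and muscle lists changed sign under at least 1 setting. The lymphocyte median ranged from 0.85 to 3.03, the megakaryocyte median from 1.90 to 4.49 and the endothelial median from 0.20 to 3.54. Dim signals limit the folds: 274 genes higher in P1 were near the empty spots on the E14 array, and 272 lower genes were near them on the P1 array.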
